A study of Arabidopsis thaliana with 16 samples.

Results

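Plastid-encoded genes are the genes carried by the chloroplast's own circular genome rather than by the nucleus. They were taken here as all genes of the count tables whose identifier starts with ATCG, which gave 88 of 27628 genes, beside 27420 nuclear and 120 mitochondrial genes. The seedlings were Arabidopsis thaliana, 10 days old. Both genotypes, the mutant fust1 and the wild type Col-0, were subjected to heat at 37 °C or kept at 22 °C. The 4 groups of each assay were therefore fust1 at 37 °C, fust1 at 22 °C, Col-0 at 37 °C and Col-0 at 22 °C, with 2 biological replicates in each per the series' design text, so 16 libraries in all. Ribo-seq counted footprints, the stretches of RNA that ribosomes shield from RNase I, and RNA-seq counted RNA selected with oligo-dT. The mutant allele, the number of mutant lines and the duration of the heat are not given by the labels, and the level of FUST1 itself was not analysed here because the name table used gives that symbol no identifier. SQN (AT2G15790), a cyclophilin gene, had 3 and 2 RNA counts in fust1 at 37 °C, 0 and 0 in fust1 at 22 °C, 511 and 387 in Col-0 at 37 °C, and 80 and 100 in Col-0 at 22 °C, so the fust1 libraries also differ from Col-0 at that gene, which was looked up with its values known.

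Plastids descend from cyanobacteria and keep a small genome that is transcribed and translated inside the organelle, on ribosomes of the bacterial type. Its genes encode core subunits of the photosystems, the cytochrome complex, the ATP synthase and the NDH complex, the large subunit of rubisco, subunits of the plastid RNA polymerase and a part of the plastid ribosome. In leaves the reaction-centre protein of photosystem II is made and replaced at a high rate, and photosystem II is known as a heat-sensitive part of photosynthesis. A poly(A) tail on a plastid RNA is not a lasting feature as on a nuclear mRNA but a mark that precedes decay, so oligo-dT RNA is not a sample of the templates that plastid ribosomes read. Footprints are therefore the main readout below, and no ratio of footprints to RNA was tested.

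The RefSeq table of the TAIR10.1 assembly lists 85 protein-coding plastid genes, among them 15 psb and 5 psa genes of the photosystems, 6 pet genes of the cytochrome complex, 6 atp genes, 12 ndh genes, rbcL, 4 rpo genes of the RNA polymerase, and 14 rps and 11 rpl genes of the ribosome. No entry of that list carries an ATCG identifier (0 in the table), so no symbol, role or length is given to any single member, and the members are named by identifier throughout. Levels were not compared per length between genes for the same reason.

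Among the 88 genes, 13 had 0 footprints in all 8 Ribo-seq libraries and 2, ATCG00890 and ATCG01310, had 1 footprint in all. These 15 genes had between 0 and 13 RNA counts over the 8 RNA-seq libraries, and they are the 15 that did not pass the filter on low footprint counts. All the other 73 genes passed it. In every library 68 genes had at least 10 footprints and 30 genes had at least 100. For RNA, 45 of the 88 genes passed the filter, all of them among the 73, and 7 genes had 0 RNA counts. The RefSeq entries put 7 plastid symbols at 2 places in the genome, and the labels do not say how reads that match more than 1 place were counted, so counts of repeated genes are uncertain.

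Footprint libraries held 6175906 to 13968790 counts and RNA libraries 9402134 to 12737375. The shallowest footprint libraries were those of Col-0 at 37 °C, with 6271023 and 6175906 counts. The seedlings' RNA held counts for 4 of 4 shoot marker genes and 4 of 4 root marker genes in every group. The summed shoot markers ranged from 20173 to 27696 RNA CPM (the usual scaling of counts to the library total) in fust1 at 37 °C, 29849 to 33653 in fust1 at 22 °C, 22375 to 31076 in Col-0 at 37 °C, and 37642 to 40096 in Col-0 at 22 °C. The sum was lower in the heated than in the unheated libraries of either genotype, as in RBCS1A and LHCB1.1, whereas RCA overlapped in both genotypes, and CA1 overlapped in fust1 and was higher in heated than unheated Col-0. The summed root markers, mostly PYK10, were also lower in heat (189 to 523, 803 to 2792, 267 to 522 and 1506 to 1787 RNA CPM in the same order of groups). PYK10 was lower in heat in both genotypes. CASP1 and EXT3 were lower in Col-0 and overlapped in fust1, whereas NRT2.1, the lowest of them, was lower in fust1 and overlapped in Col-0. The part of either list in the plastid results was not tested.

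Ribosomes on plastid RNA gave a much smaller part of the footprints after heat, in both genotypes. Plastid genes had 92567 and 94098 footprints in fust1 at 37 °C and 873616 and 587105 in fust1 at 22 °C. In Col-0 they had 81764 and 92779 footprints at 37 °C and 669675 and 580025 at 22 °C. As a share of all counted footprints this was 0.867 ± 0.111 % in fust1 at 37 °C and 5.25 ± 1.48 % in fust1 at 22 °C (mean ± SD, n = 2 in each group). In Col-0 it was 1.40 ± 0.140 % at 37 °C and 5.12 ± 0.338 % at 22 °C. The heated libraries lay below the unheated ones without overlap in both genotypes, 6.05-fold lower in fust1 and 3.65-fold lower in Col-0. Relative to the library total, the median log2 change over all genes tested was -1.80 in fust1 and -2.005 in Col-0. The plastid medians were -2.59 and -1.75, so plastid genes fell further than the median gene in fust1 and not in Col-0. At 37 °C both fust1 libraries lay below both Col-0 libraries, 1.62-fold lower in mean, and at 22 °C the fust1 libraries lay on either side of the Col-0 libraries. With 2 libraries against 2, an exact two-sided permutation test cannot give a p below 0.333, so these shares carry no test. In whole seedlings, fewer plastid-rich cells, fewer plastid ribosomes per cell and a gain of footprints on other genes cannot be told apart from these shares.

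The share also depends on what else is in the library. The 73 nuclear genes whose names mark them as heat shock proteins, heat shock factors or chaperones took 30.7 ± 0.0262 % of footprints in fust1 at 37 °C and 1.17 ± 0.00444 % in fust1 at 22 °C, and 31.4 ± 1.52 % in Col-0 at 37 °C and 1.01 ± 0.0473 % in Col-0 at 22 °C. With those genes left out of the total, the plastid share was 1.25 ± 0.161 % in fust1 at 37 °C, 5.31 ± 1.50 % in fust1 at 22 °C, 2.04 ± 0.159 % in Col-0 at 37 °C and 5.17 ± 0.344 % in Col-0 at 22 °C. The fall on the log2 scale was then -2.09 in fust1 and -1.34 in Col-0, in place of -2.60 and -1.87 with all genes in the total. In the oligo-dT libraries plastid genes were scarce, with 2010 to 4149 counts per library. Their share of RNA counts was 0.0322 ± 0.00702 % in fust1 at 37 °C, 0.0214 ± 0.00107 % in fust1 at 22 °C, 0.0276 ± 0.00275 % in Col-0 at 37 °C and 0.0275 ± 0.00399 % in Col-0 at 22 °C, so the RNA share showed no fall beside that of the footprints.

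**Figure D1:**
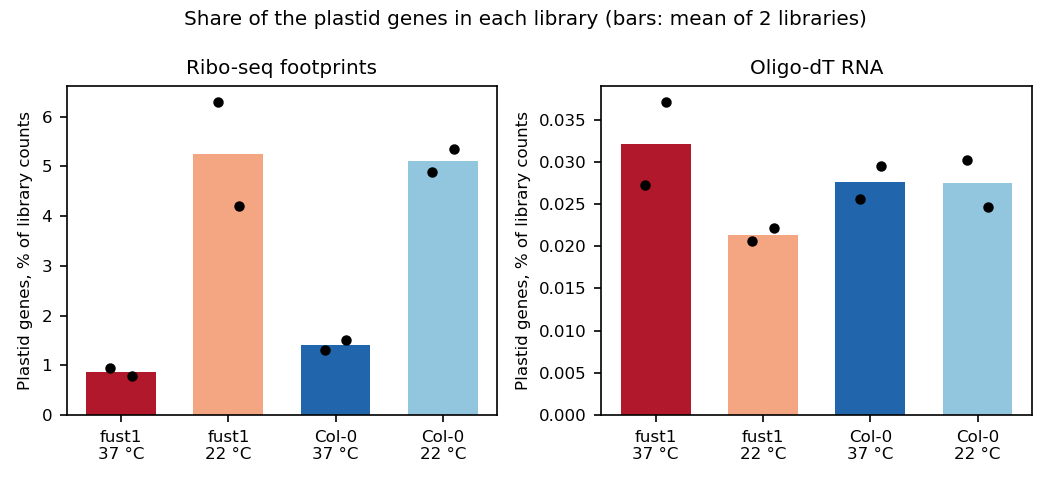
Plastid genes as a percent of all counts in each library, for footprints (left) and oligo-dT RNA (right); points are libraries and bars are means of 2 libraries, with fust1 left of Col-0 and 37 °C left of 22 °C. Footprint shares at 37 °C (0.867 % in fust1, 1.40 % in Col-0) lie below those at 22 °C (5.25 % and 5.12 %), while RNA shares stay between 0.0214 and 0.0322 %. The median footprint change over all genes tested was also negative relative to the library total (log2 -1.80 in fust1, -2.005 in Col-0).

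A handful of genes held most plastid footprints at both temperatures. The 12 genes with the highest mean share together held 85.5 ± 0.0549 % of plastid footprints in fust1 at 37 °C, 88.2 ± 0.141 % in fust1 at 22 °C, 87.5 ± 2.00 % in Col-0 at 37 °C and 90.3 ± 1.20 % in Col-0 at 22 °C. The first 2 of them, ATCG00490 and ATCG00020, held 45.7 ± 0.0440 %, 46.5 ± 0.405 %, 48.6 ± 1.71 % and 46.8 ± 4.67 % in the same order of groups. Their order by mean share was not the same in heated and unheated groups. Of plastid footprints, ATCG00490 took 24.8 ± 0.405 % in fust1 at 37 °C, 20.4 ± 0.877 % in fust1 at 22 °C, 31.9 ± 1.4 % in Col-0 at 37 °C, and 22.4 ± 0.125 % in Col-0 at 22 °C. ATCG00020 took 20.9 ± 0.449 % in fust1 at 37 °C, 26 ± 0.472 % in fust1 at 22 °C, 16.7 ± 0.309 % in Col-0 at 37 °C, and 24.4 ± 4.8 % in Col-0 at 22 °C. ATCG00490 was above ATCG00020 in both heated groups, and ATCG00020 was above ATCG00490 in fust1 at 22 °C, whereas at 22 °C in Col-0 the pair did not differ beyond the spread of ATCG00020. On the plastid-total scale, which compares each gene with the sum of plastid footprints in its library, the heat change of neither gene passed the test, with log2 changes of 0.28 ± 0.31 (SE) in fust1 and 0.51 ± 0.31 in Col-0 for ATCG00490, and -0.32 ± 0.31 and -0.54 ± 0.31 for ATCG00020. That fit scaled every gene by the plastid sum, nuclear genes included, so a missed call does not show an unchanged share. For both genes the shares in heated and unheated libraries did not overlap in either genotype.

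Levels in single libraries are given as footprint CPM, scaled to all counted footprints of the library. ATCG00490 had 2370 and 1931 footprint CPM in fust1 at 37 °C, 12485 and 8853 in fust1 at 22 °C, 4293 and 4648 in Col-0 at 37 °C, and 10900 and 12063 in Col-0 at 22 °C. ATCG00020 had 1946 and 1673 footprint CPM in fust1 at 37 °C, 16596 and 10794 in fust1 at 22 °C, 2207 and 2478 in Col-0 at 37 °C, and 13542 and 11238 in Col-0 at 22 °C. In both genes every heated library was far below every unheated library, and both fust1 libraries at 37 °C were below both Col-0 libraries at 37 °C. The genes next in share had the same arrangement. ATCG00350 had 667 and 631 footprint CPM in fust1 at 37 °C, 5599 and 3660 in fust1 at 22 °C, 1199 and 1376 in Col-0 at 37 °C, and 4061 and 4913 in Col-0 at 22 °C. ATCG00270 had 894 and 733 footprint CPM in fust1 at 37 °C, 4443 and 2675 in fust1 at 22 °C, 988 and 1158 in Col-0 at 37 °C, and 2778 and 3707 in Col-0 at 22 °C. ATCG00280 had 698 and 557 footprint CPM in fust1 at 37 °C, 3096 and 2243 in fust1 at 22 °C, 1255 and 1248 in Col-0 at 37 °C, and 2703 and 2810 in Col-0 at 22 °C. In these 3 genes the heated and unheated libraries did not overlap in either genotype, and the fust1 libraries at 37 °C were below the Col-0 libraries at 37 °C.

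ATCG00340 had 448 and 422 footprint CPM in fust1 at 37 °C, 4453 and 2987 in fust1 at 22 °C, 530.4 and 669 in Col-0 at 37 °C, and 3159 and 3899 in Col-0 at 22 °C. ATCG00480 had 339 and 275 footprint CPM in fust1 at 37 °C, 2489 and 1535 in fust1 at 22 °C, 499 and 545 in Col-0 at 37 °C, and 1603 and 2421 in Col-0 at 22 °C. Both were lower in each heated library than in any unheated one. ATCG00120 had 139 and 107 footprint CPM in fust1 at 37 °C, 1107 and 724 in fust1 at 22 °C, 114 and 158 in Col-0 at 37 °C, and 884 and 1128 in Col-0 at 22 °C. ATCG00470 had 119 and 91 footprint CPM in fust1 at 37 °C, 774 and 504 in fust1 at 22 °C, 113 and 142 in Col-0 at 37 °C, and 595 and 674 in Col-0 at 22 °C. ATCG00130 had 107 and 96.3 footprint CPM in fust1 at 37 °C, 463 and 357 in fust1 at 22 °C, 127 and 135 in Col-0 at 37 °C, and 401 and 509 in Col-0 at 22 °C. These 3 were also lower in each heated library than in any unheated one, and at 37 °C fust1 and Col-0 libraries overlapped in ATCG00120 and ATCG00470 but not in ATCG00130. The 2 remaining genes of the 12, ATCG00680 and ATCG00570, moved furthest within the plastid footprints and are described next.

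**Figure D2:**
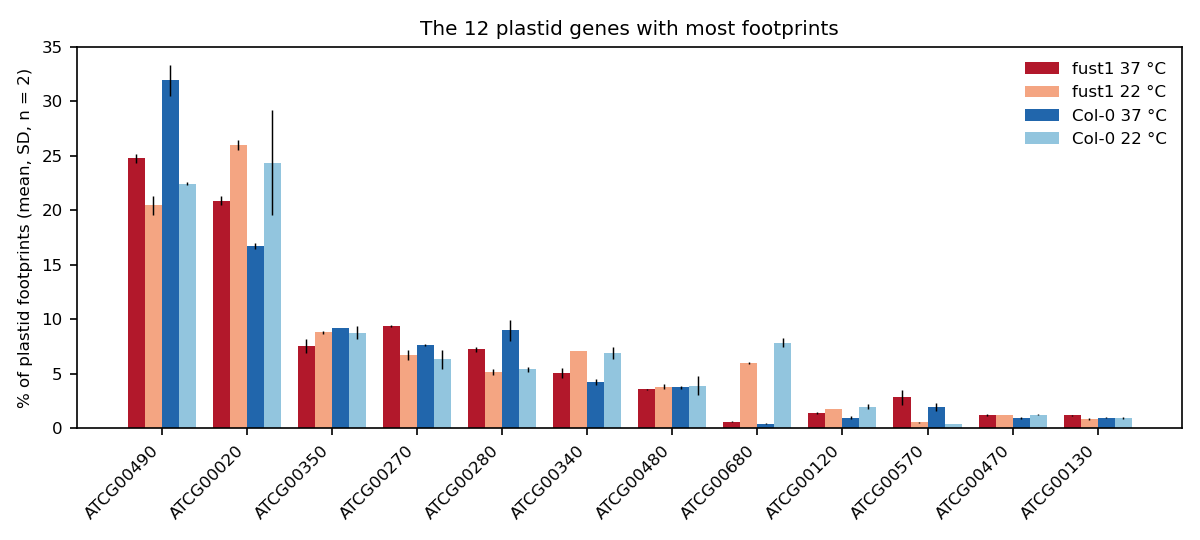
Share of plastid footprints held by each of the 12 plastid genes with most footprints, as group means with SD (n = 2 libraries), bars ordered fust1 37 °C, fust1 22 °C, Col-0 37 °C, Col-0 22 °C. ATCG00490 is the largest at 37 °C in both genotypes, ATCG00680 is barely visible at 37 °C (0.589 % in fust1 and 0.413 % in Col-0), and ATCG00570 gains.

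ATCG00680 had the most negative log2 change in heat of the 73 plastid genes tested, in both genotypes and on each of the 3 scales used. It had 501 and 599 footprints in fust1 at 37 °C and 52852 and 34632 in fust1 at 22 °C. In Col-0 ATCG00680 had 356 and 362 at 37 °C and 50553 and 47148 at 22 °C. All 4 heated libraries lay far below all 4 unheated ones. Its share of plastid footprints was 0.589 ± 0.0674 % in fust1 at 37 °C, 5.97 ± 0.107 % in fust1 at 22 °C, 0.413 ± 0.032 % in Col-0 at 37 °C, and 7.84 ± 0.41 % in Col-0 at 22 °C. On the plastid-total scale it changed by -3.34 ± 0.35 (adjusted p = 2.25e-20) in fust1 and -4.25 ± 0.36 (adjusted p = 7.62e-30) in Col-0 (edgeR quasi-likelihood test, Benjamini-Hochberg over all genes). Set against the typical gene (TMM scale) the values were -4.29 ± 0.20 and -4.32 ± 0.20, and relative to the library total they were -5.95 ± 0.20 and -6.12 ± 0.20. The call was kept under each alternative fit and with each library left out. The heat change did not pass the test of a difference between genotypes, with 0.03 ± 0.25 (adjusted p = 0.962) on the TMM scale and 0.90 ± 0.45 (adjusted p = 0.177) on the plastid-total scale. Its oligo-dT RNA was called lower in neither genotype. It had 87 and 210 RNA counts in fust1 at 37 °C, 57 and 54 in fust1 at 22 °C, 55 and 97 in Col-0 at 37 °C, and 104 and 78 in Col-0 at 22 °C, a log2 change of 2.20 ± 0.50 (adjusted p = 0.00705) in fust1, a rise that missed the threshold without fust1 37 °C replicate 2 (1.48), and 0.81 ± 0.49 (adjusted p = 0.218) in Col-0, which did not pass.

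The make-up of the plastid footprints changed with heat. The plastid-total scale divides by the sum of these same genes, so gains of some are offset by losses of others and the balance of risers and fallers is no result. On that scale 12 of the 73 genes rose and 13 fell in heated fust1, where 39.6 % and 9.29 % of all genes tested were called higher and lower. In heated Col-0 17 rose and 12 fell, where 22 % and 23.6 % of all genes were called. All genes, most of them nuclear, were divided by the plastid sum, and their median log2 change was then 0.74 in fust1 and -0.15 in Col-0. Here and in later comparisons on this scale, the shares of all genes therefore follow the plastid sum. They are no background rate for changes within the plastid footprints. In both genotypes 11 genes rose and 8 fell, and 0 rose in one genotype and fell in the other. The shares of all genes in these joint classes are not given here. The median log2 change of the 73 genes was 0.05 in fust1 and 0.11 in Col-0, on a scale centred on the plastid sum. The counts depended on which library was left out and on the scaling. Plastid-total scaling of the plastid genes with TMM for all others gave 22 risers and 20 fallers in fust1, and 21 fallers in Col-0. TMM over plastid genes alone gave 7 risers in fust1 and 5 in Col-0. The compared groups alone gave 7 risers and 5 fallers in fust1, and 21 fallers in Col-0. In fust1 the counts were 7 risers and 5 fallers without fust1 37 °C replicate 1. In Col-0 they were 4 and 5 without Col-0 22 °C replicate 1, 7 and 2 without Col-0 22 °C replicate 2, 9 and 3 without Col-0 37 °C replicate 1, and 7 and 6 without Col-0 37 °C replicate 2.

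ATCG00570 was the largest riser on the plastid-total scale in either genotype. It had 310.0 and 184 footprint CPM in fust1 at 37 °C, 312 and 225 in fust1 at 22 °C, 216 and 323 in Col-0 at 37 °C, and 165 and 213 in Col-0 at 22 °C. The heated libraries overlapped the unheated ones in fust1 and lay above them in Col-0, and its share of plastid footprints was 2.8 ± 0.668 % in fust1 at 37 °C, 0.516 ± 0.029 % in fust1 at 22 °C, 1.9 ± 0.348 % in Col-0 at 37 °C, and 0.367 ± 0.0421 % in Col-0 at 22 °C. The log2 change was 2.44 ± 0.34 (adjusted p = 1.40e-11) in fust1 and 2.37 ± 0.34 (adjusted p = 6.05e-11) in Col-0, and both calls were kept with each library left out. ATCG00140 had 159 and 104 footprint CPM in fust1 at 37 °C, 255 and 169.8 in fust1 at 22 °C, 104 and 300.4 in Col-0 at 37 °C, and 140.3 and 183 in Col-0 at 22 °C. The replicates of Col-0 at 37 °C lay on either side of the unheated Col-0 libraries. The log2 change on the plastid-total scale was 1.89 ± 0.34 (adjusted p = 2.04e-07) in fust1 and 2.15 ± 0.34 (adjusted p = 4.83e-09) in Col-0, with 1.34 in Col-0 without Col-0 37 °C replicate 2, and the Col-0 call ended in a fit of the 2 Col-0 groups alone. ATCG00560 had 26.7 and 10.2 footprint CPM in fust1 at 37 °C, 41.8 and 30.6 in fust1 at 22 °C, 14.2 and 42.3 in Col-0 at 37 °C, and 19.6 and 29.6 in Col-0 at 22 °C, with replicates of both heated groups far apart. Its log2 change of 1.56 ± 0.38 (adjusted p = 0.000139) in fust1 missed the threshold without fust1 37 °C replicate 1 (0.90), and that of 2.03 ± 0.38 (adjusted p = 1.04e-06) in Col-0 missed it without Col-0 37 °C replicate 2 (1.19).

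ATCG00700 had 33.7 and 18.4 footprint CPM in fust1 at 37 °C, 44.8 and 41.2 in fust1 at 22 °C, 20.1 and 24.6 in Col-0 at 37 °C, and 28 and 37.1 in Col-0 at 22 °C. It rose within the plastid footprints by 1.80 ± 0.37 (adjusted p = 7.06e-06) in fust1 and 1.33 ± 0.37 (adjusted p = 0.00146) in Col-0, the second of which missed the threshold without Col-0 22 °C replicate 1 (1.20), or when scaled by TMM over plastid genes alone (1.05). ATCG01090 had 68 and 90 footprints in fust1 at 37 °C, 256 and 135 in fust1 at 22 °C, 61 and 67 in Col-0 at 37 °C, and 105 and 189 in Col-0 at 22 °C, a low count in all libraries. It rose by 1.69 ± 0.42 (adjusted p = 0.000277) in fust1 and 1.61 ± 0.43 (adjusted p = 0.000766) in Col-0, where the call ended without Col-0 22 °C replicate 1 (1.17). ATCG00630 had 123 and 102 footprints in fust1 at 37 °C and 507 and 314 in fust1 at 22 °C. In Col-0 ATCG00630 had 142 and 147 at 37 °C and 246 and 307 at 22 °C. It rose by 1.11 ± 0.39 (adjusted p = 0.0105) in fust1, missing the threshold without fust1 37 °C replicate 1 (0.96), with TMM over plastid genes alone (0.95) or with the 2 fust1 groups alone, and by 1.89 ± 0.39 (adjusted p = 1.08e-05) in Col-0. ATCG00720 had 124 and 92.6 footprint CPM in fust1 at 37 °C, 285 and 204 in fust1 at 22 °C, 109.6 and 154 in Col-0 at 37 °C, and 226 and 259 in Col-0 at 22 °C. It rose by 1.41 ± 0.33 (adjusted p = 0.000118) in fust1 and by 0.98 ± 0.33 (adjusted p = 0.00954) in Col-0, where the call ended without Col-0 22 °C replicate 1 (0.95), Col-0 22 °C replicate 2 (1.01) or Col-0 37 °C replicate 2 (0.83), or with TMM over plastid genes alone (0.68).

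Among the other called fallers were ATCG00120 and ATCG00070, with many footprints, and genes with fewer. ATCG00120 changed on the plastid-total scale by -1.02 ± 0.33 (adjusted p = 0.00544) in Col-0, where the call ended without Col-0 22 °C replicate 2 (-0.91) or Col-0 37 °C replicate 1 (-0.90), and ATCG00070 by -1.03 ± 0.34 (adjusted p = 0.00691) in fust1, where it ended without fust1 37 °C replicate 1 (-0.84) or with the 2 fust1 groups alone. ATCG01020 had 15 and 31 footprints in fust1 at 37 °C and 958 and 562 in fust1 at 22 °C. In Col-0 ATCG01020 had 18 and 22 at 37 °C and 402 and 479 at 22 °C. Its log2 change on the plastid-total scale was -2.06 ± 0.45 (adjusted p = 2.22e-05) in fust1 and -1.64 ± 0.45 (adjusted p = 0.00122) in Col-0, where the call ended without Col-0 22 °C replicate 2 (-1.39). ATCG01010 had 18 and 21 footprints in fust1 at 37 °C and 578 and 419 in fust1 at 22 °C. In Col-0 ATCG01010 had 28 and 47 at 37 °C and 421 and 427 at 22 °C. It changed by -1.72 ± 0.46 (adjusted p = 0.000683) in fust1, whereas the Col-0 change of -0.68 ± 0.43 (adjusted p = 0.185) did not pass. ATCG00750 had 134 and 82 footprints in fust1 at 37 °C and 2634 and 1892 in fust1 at 22 °C. In Col-0 ATCG00750 had 124 and 147 at 37 °C and 2391 and 1849 at 22 °C. It changed by -1.43 ± 0.36 (adjusted p = 0.000358) in fust1 and -1.12 ± 0.36 (adjusted p = 0.00567) in Col-0, and the Col-0 call ended without Col-0 22 °C replicate 1 (-1.04), Col-0 37 °C replicate 1 (-1.09) or Col-0 37 °C replicate 2 (-1.16).

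ATCG00710 had 89 and 57 footprints in fust1 at 37 °C and 1821 and 1093 in fust1 at 22 °C. In Col-0 ATCG00710 had 66 and 59 at 37 °C and 1126 and 1299 at 22 °C. It changed by -1.33 ± 0.38 (adjusted p = 0.00156) in fust1 and -1.44 ± 0.38 (adjusted p = 0.000748) in Col-0. In fust1 the call was lost without fust1 37 °C replicate 2 (-1.04), and in Col-0 without Col-0 22 °C replicate 2 (-1.22) or Col-0 37 °C replicate 2 (-1.28). ATCG00660 had 36 and 31 footprints in fust1 at 37 °C and 683 and 412 in fust1 at 22 °C. In Col-0 ATCG00660 had 16 and 30 at 37 °C and 340 and 440 at 22 °C. It changed by -1.05 ± 0.43 (adjusted p = 0.0337) in fust1 and -1.28 ± 0.45 (adjusted p = 0.0129) in Col-0. That of fust1 was lost without Col-0 22 °C replicate 1 (-1.05), Col-0 22 °C replicate 2 (-1.05), fust1 37 °C replicate 1 (-1.17) or fust1 37 °C replicate 2 (-0.93), with TMM over plastid genes alone (-1.21) or with the 2 fust1 groups alone, and the Col-0 call without Col-0 22 °C replicate 2 (-0.96) or Col-0 37 °C replicate 1 (-0.97). In ATCG01020, ATCG01010, ATCG00750, ATCG00710 and ATCG00660 alike, all heated libraries had fewer footprints than all unheated ones.

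**Figure D3:**
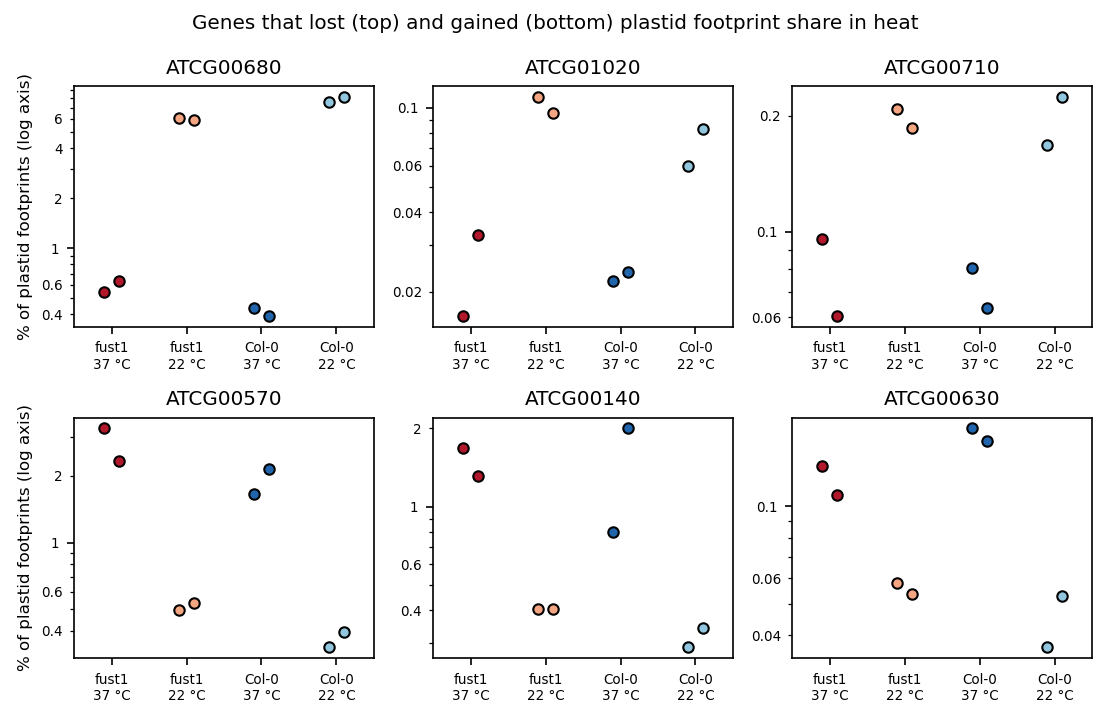
Share of plastid footprints (percent, log axis) in each library for 3 genes that lost share in heat (top row) and 3 that gained (bottom row); each point is a library, with fust1 left of Col-0 and 37 °C left of 22 °C. ATCG00680 separates heated from unheated libraries by the widest gap, and the replicates of ATCG00140 in Col-0 at 37 °C lie far apart (651 and 1855 footprints).

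Set against the typical gene of the whole table (TMM scale), many more plastid genes fell than rose in heated fust1, and as many rose as fell in heated Col-0. In fust1 3 of the 73 genes rose and 43 fell, with a median log2 change of -0.93, beside -0.13 over all 18445 genes tested, of which 27.6 % were called higher and 31.2 % lower. In Col-0 20 rose and 20 fell, with a median of 0.04 beside -0.21 over all genes, of which 27.8 % were called higher and 31.8 % lower. The number lower in fust1 was 33 to 52 over the fits with 1 library left out. The Col-0 risers numbered 10 without Col-0 37 °C replicate 2 and 11 without Col-0 22 °C replicate 1, the Col-0 fallers 11 without Col-0 37 °C replicate 1, and the fust1 risers 1 without fust1 37 °C replicate 1 and 5 without fust1 22 °C replicate 1. Both genotypes shared 3 risers and 20 fallers. A further 13 genes rose in Col-0 and were not called in fust1, and 19 were called lower in fust1 and not called in Col-0. The shares of all genes in these classes of both genotypes are not given here, so the joint counts are a description.

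Relative to the library total instead, 0 plastid genes rose and 68 of 73 fell in fust1, and 0 rose and 61 fell in Col-0. On that scale 82 % of all genes tested in fust1 and 79.1 % in Col-0 were called lower, and 3.69 % and 3.76 % higher. The plastid median was -2.59 in fust1, beside -1.80 over all genes, and -1.75 in Col-0, beside -2.005. The median over the plastid genes moved by -1.66 in fust1 and -1.79 in Col-0 between the TMM and the library-total scale, and 0 of the 20 genes called higher in heated Col-0 on the TMM scale were called higher on the library-total scale. At an unadjusted p under 0.05 the library-total fits gave the same numbers, 68 and 61 genes in either direction.

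The 3 genes that rose on the TMM scale in both genotypes were ATCG00570, ATCG00700 and ATCG00720. ATCG00570 rose by 1.56 ± 0.34 (adjusted p = 0.00548) in fust1, with 1.02 without fust1 37 °C replicate 1, and by 2.30 ± 0.35 (adjusted p = 0.000805) in Col-0. ATCG00700 rose by 0.96 ± 0.23 (adjusted p = 0.00166) in fust1, where the call ended without fust1 37 °C replicate 1 (0.35), and by 1.26 ± 0.25 (adjusted p = 0.000253) in Col-0. ATCG00720 rose by 0.50 ± 0.20 (adjusted p = 0.0378) in fust1 and 0.91 ± 0.20 (adjusted p = 0.000825) in Col-0. Its fust1 value was 0.83 without fust1 22 °C replicate 1, and the call ended without Col-0 37 °C replicate 1 (0.47), Col-0 37 °C replicate 2 (0.46), fust1 22 °C replicate 2 (0.23) or fust1 37 °C replicate 1 (0.17), and in DESeq2 (0.51) or with RLE scaling (0.44). A rise on the TMM scale smaller than the shift above is no rise relative to the library total, where the 3 genes had -0.12 ± 0.25, -0.73 ± 0.22 and -1.17 ± 0.18 in fust1 and 0.52 ± 0.25, -0.54 ± 0.23 and -0.88 ± 0.19 in Col-0.

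Relative to the typical gene, 4 genes moved in opposite directions in the genotypes. ATCG00490, ATCG00280, ATCG00220 and ATCG01130 were called lower in heated fust1 and higher in heated Col-0 on the TMM scale, and all 4 were also called lower in the test of heat by genotype. The share of all genes called in opposite directions is not given here. ATCG00490 changed by -0.64 ± 0.18 (adjusted p = 0.00337) in fust1 and 0.44 ± 0.18 (adjusted p = 0.0372) in Col-0. The fust1 call ended without fust1 22 °C replicate 1 (-0.30) or fust1 37 °C replicate 2 (-0.48), and the Col-0 call without Col-0 22 °C replicate 1 (0.37), Col-0 22 °C replicate 2 (0.49), Col-0 37 °C replicate 1 (0.34), Col-0 37 °C replicate 2 (0.36), fust1 37 °C replicate 1 (0.35) or fust1 37 °C replicate 2 (0.36), in DESeq2 (0.44) or with RLE scaling (0.39). ATCG00280 changed by -0.41 ± 0.17 (adjusted p = 0.0395) in fust1 and 0.66 ± 0.17 (adjusted p = 0.00169) in Col-0. The fust1 call ended without fust1 22 °C replicate 1 (-0.10) or fust1 37 °C replicate 2 (-0.24), in DESeq2 (-0.41) or with the 2 fust1 groups alone, and was -0.68 without fust1 22 °C replicate 2 and -0.70 without fust1 37 °C replicate 1. The Col-0 call ended without Col-0 37 °C replicate 1 (0.51). ATCG01130 changed by -1.14 ± 0.31 (adjusted p = 0.00531) in fust1 and 0.77 ± 0.31 (adjusted p = 0.0402) in Col-0. The fust1 call ended without fust1 22 °C replicate 1 (-0.67), fust1 37 °C replicate 1 (-1.03) or fust1 37 °C replicate 2 (-1.38), and the Col-0 call without Col-0 22 °C replicate 1 (0.54), Col-0 37 °C replicate 2 (0.16), fust1 37 °C replicate 1 (0.69) or fust1 37 °C replicate 2 (0.69). ATCG00220 changed by -0.77 ± 0.23 (adjusted p = 0.00474) in fust1 and 0.57 ± 0.23 (adjusted p = 0.038) in Col-0, and was named after its values were seen. Relative to the library total all 4 were called lower in heat in both genotypes, as -2.31 ± 0.16 in fust1 and -1.36 ± 0.16 in Col-0 for ATCG00490.

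**Figure D4:**
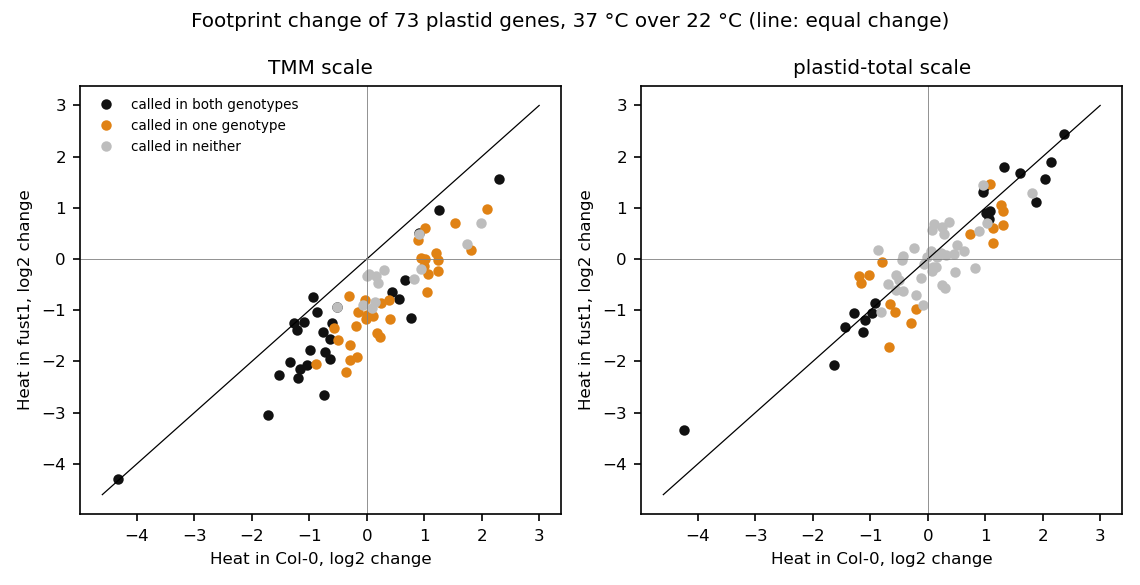
Heat change in footprints (log2, 37 °C over 22 °C) of the 73 tested plastid genes in fust1 (vertical) against Col-0 (horizontal), on the TMM scale (left) and the plastid-total scale (right); the line marks equal change and colour shows in how many genotypes a gene was called. On the TMM scale most genes lie below the line, and on the plastid-total scale they lie along it, with ATCG00680 alone at the lower left.

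Few plastid genes were called between the genotypes at 22 °C. On the TMM scale 1 of 73 genes was higher in fust1 than in Col-0 and 0 were lower, where 2.31 % of all genes were called higher and 2.07 % lower, and the median was 0.16 beside -0.03 over all genes. The 1 gene was ATCG00080. It had 110.1 and 76.9 footprint CPM in fust1 at 37 °C, 584 and 453 in fust1 at 22 °C, 100.0 and 111 in Col-0 at 37 °C, and 245 and 317 in Col-0 at 22 °C. At 22 °C both fust1 libraries were above both Col-0 libraries, and the log2 difference was 0.81 ± 0.19 (adjusted p = 0.017). The call ended without Col-0 22 °C replicate 1 (0.64), Col-0 37 °C replicate 1 (0.84) or fust1 22 °C replicate 1 (0.55). The number of genes called higher was 4 without fust1 22 °C replicate 2 and 2 without either fust1 library at 37 °C, and 1 gene was called lower without fust1 22 °C replicate 1. On the plastid-total scale 0 genes were called by edgeR and 0 by DESeq2, 1 had an unadjusted p under 0.05, and 0.125 % of all genes were called higher and 0.0325 % lower. Plastid-total scaling of the plastid genes with TMM for all others gave 2 higher. The 2 fust1 libraries at 22 °C differed by more in plastid share than the genotypes did.

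At 37 °C the plastid genes had fewer footprints in fust1 than in Col-0, measured against the typical gene. By TMM scaling 28 of 73 genes were lower in fust1 and 0 were higher, where 4.61 % of all genes tested were called lower and 6.11 % higher. The median log2 difference was -0.79 beside 0.06 over all genes, with 71 of the 73 genes below 0. Of the 12 genes with most footprints 6 were among the 28. With library totals in place of TMM factors the plastid median would be -0.59, since the factors shift it by 0.20. The number lower was 7 without Col-0 37 °C replicate 2, 9 without fust1 37 °C replicate 2, 13 without Col-0 37 °C replicate 1 and 18 without fust1 37 °C replicate 1, and 0 were higher in each of the fits with 1 library left out.

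Within the plastid footprints a single gene was called between the genotypes at 37 °C. On the plastid-total scale 1 gene, ATCG00700, was higher in fust1 and 0 were lower, where 33.1 % of all genes were called higher and 0.125 % lower, and the plastid median was 0.10. That fit scaled every gene by the plastid sum, nuclear genes included. Plastid-total scaling of the plastid genes with TMM for all others gave 11 higher and 2 lower. The single call therefore does not show that the plastid make-up was alike in the genotypes. ATCG00700 differed by 0.89 ± 0.37 (adjusted p = 0.0493), and this call ended without Col-0 22 °C replicate 1 (0.89), Col-0 22 °C replicate 2 (0.89), Col-0 37 °C replicate 1 (0.85), Col-0 37 °C replicate 2 (0.94), fust1 37 °C replicate 1 (0.56) or fust1 37 °C replicate 2 (1.16), with TMM over plastid genes alone (0.74) or with no filter (0.89). Leaving out either fust1 library at 22 °C gave 9 genes higher and 2 lower.

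ATCG01010 had the lowest value on the TMM scale at 37 °C, -1.95 ± 0.36 (adjusted p = 0.000711) in fust1 relative to Col-0, and it stood at 18 and 21 footprints in fust1 against 28 and 47 in Col-0. ATCG01100 had 54 and 65 footprints in fust1 at 37 °C and 779 and 534 in fust1 at 22 °C. In Col-0 ATCG01100 had 92 and 92 at 37 °C and 560 and 546 at 22 °C. Its difference at 37 °C was -1.64 ± 0.25 (adjusted p = 0.000108), and the call was kept with each library left out. ATCG01130 had 50 and 85 footprints in fust1 at 37 °C and 742 and 452 in fust1 at 22 °C. In Col-0 ATCG01130 had 65 and 131 at 37 °C and 367 and 404 at 22 °C. Its difference was -1.55 ± 0.35 (adjusted p = 0.00927), and the call ended without Col-0 37 °C replicate 2 (-0.95), fust1 37 °C replicate 1 (-1.33) or fust1 37 °C replicate 2 (-1.68). ATCG00490 differed by -1.25 ± 0.18 (adjusted p = 5.41e-05), ATCG00350 by -1.19 ± 0.18 (adjusted p = 0.000115) and ATCG00280 by -1.19 ± 0.17 (adjusted p = 6.14e-05). These 3 calls were kept with each library left out.

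Other calls at 37 °C were lost with a library left out. ATCG00480 differed by -0.96 ± 0.25 (adjusted p = 0.0284) and ATCG00340 by -0.66 ± 0.18 (adjusted p = 0.0174). The call of ATCG00480 ended without Col-0 37 °C replicate 1 (-0.89), Col-0 37 °C replicate 2 (-0.89), fust1 37 °C replicate 1 (-1.11) or fust1 37 °C replicate 2 (-0.69). The call of ATCG00340 ended without Col-0 37 °C replicate 1 (-0.68), Col-0 37 °C replicate 2 (-0.48) or fust1 37 °C replicate 2 (-0.49). ATCG00130 differed by -0.57 ± 0.16 (adjusted p = 0.0223), which ended without Col-0 37 °C replicate 1 (-0.47), Col-0 37 °C replicate 2 (-0.52) or fust1 37 °C replicate 2 (-0.36). ATCG00750 differed by -1.30 ± 0.29 (adjusted p = 0.0106), which ended without Col-0 37 °C replicate 1 (-1.29), Col-0 37 °C replicate 2 (-1.15) or fust1 37 °C replicate 2 (-0.74). Of the 12 genes with most footprints 6 were not called, with -0.57 ± 0.19 for ATCG00020, -0.59 ± 0.22 for ATCG00270, -0.39 ± 0.19 for ATCG00680, -0.30 ± 0.33 for ATCG00570, -0.34 ± 0.23 for ATCG00120 and -0.47 ± 0.21 for ATCG00470.

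**Figure D5:**
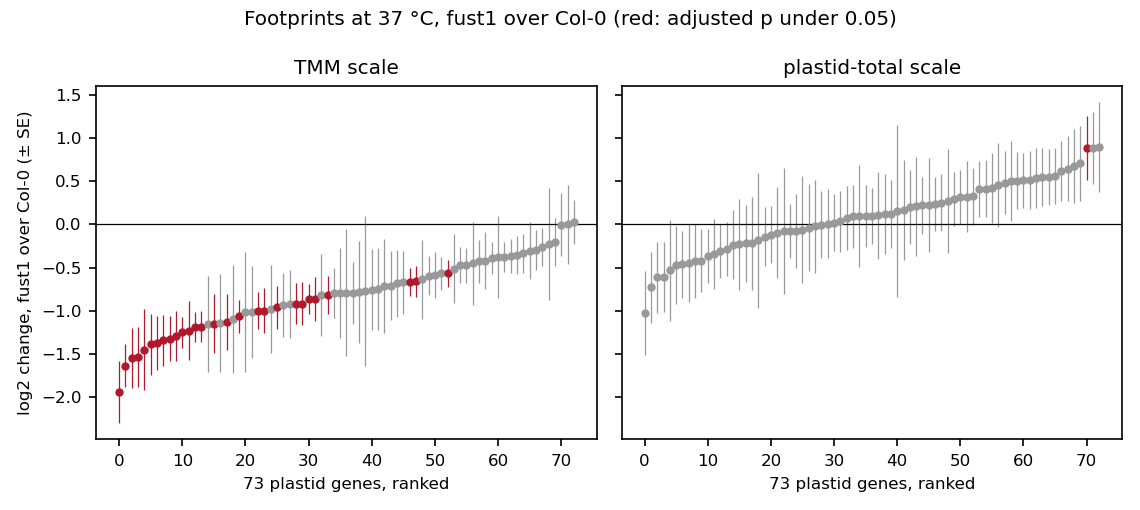
Footprint difference at 37 °C, fust1 over Col-0, for the 73 tested plastid genes in rank order (log2 with SE, from 4 groups of 2 libraries), on the TMM scale (left) and the plastid-total scale (right); red points have an adjusted p under 0.05. On the TMM scale 71 of 73 lie below 0 and 28 are called, while on the plastid-total scale the points spread around 0 and 1 is called.

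The direct test of whether heat acted differently in fust1 and in Col-0 gave 23 lower and 0 higher plastid genes on the TMM scale, where 3.21 % of all genes were called lower and 5.49 % higher. The median was -1.04 beside 0.08 over all genes, and 70 of the 73 genes were below 0. Of the 23 genes 20 were also among the 28 lower at 37 °C, and the 2 comparisons share the libraries at 37 °C. The number called lower was 9 without Col-0 37 °C replicate 2, 11 without fust1 37 °C replicate 2, 11 without fust1 22 °C replicate 1, 13 without Col-0 22 °C replicate 1, 15 without Col-0 37 °C replicate 1 and 38 without fust1 22 °C replicate 2. On the plastid-total scale 0 genes were called by edgeR and 0 by DESeq2, 1 had an unadjusted p under 0.05, and 8.99 % of all genes were called higher and 0.0271 % lower. Plastid-total scaling of the plastid genes with TMM for all others gave 4 higher and 1 lower, and leaving out fust1 22 °C replicate 2 gave 1 each way.

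Among the named genes ATCG01100 had the smallest adjusted p in the test of heat by genotype, -1.62 ± 0.32 (adjusted p = 0.00172), and its call was kept with each library left out. ATCG00170 had 28 and 38 footprints in fust1 at 37 °C and 778 and 460 in fust1 at 22 °C. In Col-0 ATCG00170 had 36 and 50 at 37 °C and 357 and 386 at 22 °C. Its value was -1.86 ± 0.42 (adjusted p = 0.00647), and the call ended without Col-0 37 °C replicate 2 (-1.62) or fust1 37 °C replicate 2 (-1.83). ATCG00420 had 62 and 58 footprints in fust1 at 37 °C and 328 and 275 in fust1 at 22 °C. In Col-0 ATCG00420 had 69 and 82 at 37 °C and 235 and 250 at 22 °C. Its value was -1.36 ± 0.33 (adjusted p = 0.0101), and the call ended without Col-0 22 °C replicate 1 (-1.16), fust1 22 °C replicate 1 (-1.15) or fust1 37 °C replicate 2 (-1.07). ATCG01010 gave -1.91 ± 0.41 (adjusted p = 0.00419) and ended without Col-0 37 °C replicate 2 (-1.50). ATCG01130 gave -1.91 ± 0.44 (adjusted p = 0.0132) and ended without Col-0 37 °C replicate 2 (-1.34), fust1 37 °C replicate 1 (-1.71) or fust1 37 °C replicate 2 (-2.07). ATCG00630, a riser within the plastid footprints of both genotypes, gave -1.63 ± 0.40 (adjusted p = 0.0166) and ended without Col-0 37 °C replicate 1 (-1.56), Col-0 37 °C replicate 2 (-1.62), fust1 22 °C replicate 1 (-1.17) or fust1 37 °C replicate 2 (-1.27).

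Plastid RNA in the oligo-dT libraries rose with heat in a part of the genes, measured against the typical gene (TMM scale). Of the 45 plastid genes tested, 23 rose and 0 fell in fust1, where 18.8 % of all genes tested were called higher and 17.9 % lower. In Col-0 13 rose and 0 fell, where 19.2 % were called higher and 18.2 % lower. The median log2 change was 1.53 in fust1 and 0.85 in Col-0, beside -0.12 and -0.10 over all 19340 genes. These rises are relative to the typical gene. With library totals in place of TMM factors the medians would be 0.61 in fust1 and -0.19 in Col-0, so the direction in Col-0 flips between the scales. All 13 genes called in Col-0 were among the 23 called in fust1, and the overlap over all genes is not given here. The number in fust1 was 9 without fust1 37 °C replicate 2, 13 without fust1 22 °C replicate 2 and 14 without fust1 22 °C replicate 1, and in Col-0 it was 4 without Col-0 22 °C replicate 2 and 7 without Col-0 22 °C replicate 1 or Col-0 37 °C replicate 2.

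ATCG00070 and ATCG00080 rose the most in RNA among the genes with the highest RNA share. ATCG00070 had 200 and 327 RNA counts in fust1 at 37 °C and 25 and 25 in fust1 at 22 °C. In Col-0 ATCG00070 had 260 and 191 at 37 °C and 50 and 41 at 22 °C. Every heated library was far above every unheated one, with a log2 change of 4.18 ± 0.34 (adjusted p = 3.95e-06) in fust1 and 3.33 ± 0.32 (adjusted p = 1.50e-05) in Col-0, kept with each library left out. ATCG00080 had 191 and 421 RNA counts in fust1 at 37 °C and 62 and 32 in fust1 at 22 °C. In Col-0 ATCG00080 had 225 and 217 at 37 °C and 58 and 58 at 22 °C. Its change was 3.47 ± 0.43 (adjusted p = 0.000226) in fust1 and 2.99 ± 0.42 (adjusted p = 0.000495) in Col-0, also kept. ATCG00070 footprints went the other way. It had 29.5 and 32.4 footprint CPM in fust1 at 37 °C, 425 and 336 in fust1 at 22 °C, 40.7 and 73 in Col-0 at 37 °C, and 289.7 and 316 in Col-0 at 22 °C, and on the TMM scale they changed by -1.95 ± 0.19 (adjusted p = 5.04e-09) in fust1 and -0.63 ± 0.18 (adjusted p = 0.00486) in Col-0. The Col-0 fall was -1.12 without Col-0 37 °C replicate 2, and its call ended without Col-0 37 °C replicate 1 (-0.40).

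ATCG00120 had 158 and 247 RNA counts in fust1 at 37 °C and 45 and 71 in fust1 at 22 °C. In Col-0 ATCG00120 had 212 and 166 at 37 °C and 76 and 67 at 22 °C. It rose by 2.60 ± 0.32 (adjusted p = 0.000121) in fust1 and 2.43 ± 0.31 (adjusted p = 0.000162) in Col-0, while its footprints changed by -1.22 ± 0.22 and -1.10 ± 0.22. ATCG00430 had 34 and 36 RNA counts in fust1 at 37 °C and 20 and 6 in fust1 at 22 °C. In Col-0 ATCG00430 had 32 and 25 at 37 °C and 6 and 9 at 22 °C. It rose by 2.19 ± 0.65 (adjusted p = 0.022) in fust1 and 2.97 ± 0.69 (adjusted p = 0.00682) in Col-0. The fust1 call ended without fust1 22 °C replicate 2 (1.52), fust1 37 °C replicate 1 (2.20) or fust1 37 °C replicate 2 (2.19), and it was 3.38 without fust1 22 °C replicate 1. The Col-0 call ended without Col-0 22 °C replicate 1 (2.94) or Col-0 22 °C replicate 2 (3.02). ATCG00420 had 15 and 37 RNA counts in fust1 at 37 °C and 2 and 6 in fust1 at 22 °C. In Col-0 ATCG00420 had 17 and 11 at 37 °C and 9 and 4 at 22 °C. It rose by 3.45 ± 0.90 (adjusted p = 0.0115) in fust1, where the call ended without fust1 22 °C replicate 1 (2.93) or fust1 37 °C replicate 2 (2.71), and its Col-0 value of 2.06 ± 0.86 (adjusted p = 0.0803) did not pass.

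The other genes with the highest RNA share were ATCG00480, ATCG00190 and ATCG01020. ATCG00480 had 189 and 311 RNA counts in fust1 at 37 °C and 252 and 240 in fust1 at 22 °C. In Col-0 ATCG00480 had 363 and 383 at 37 °C and 340 and 387 at 22 °C. Its RNA changed by 0.81 ± 0.25 (adjusted p = 0.0267) in fust1 and 1.11 ± 0.25 (adjusted p = 0.00552) in Col-0. These rises are relative to the typical gene. As RNA CPM the heated and unheated libraries overlapped in both genotypes, and the shift from the TMM to the library-total scale was -0.92 in fust1 and -1.04 in Col-0. Without fust1 22 °C replicate 1 (0.92), fust1 22 °C replicate 2 (0.70) or fust1 37 °C replicate 2 (0.45) the fust1 call ended, and the Col-0 call ended without Col-0 22 °C replicate 2 (0.97). ATCG00190 had 222 and 247 RNA counts in fust1 at 37 °C and 264 and 306 in fust1 at 22 °C. In Col-0 ATCG00190 had 217 and 210 at 37 °C and 360 and 478 at 22 °C. Its RNA counts were lower in heated than unheated Col-0 libraries, yet on the TMM scale its change was 0.52 ± 0.19 (adjusted p = 0.0542) in fust1 and 0.11 ± 0.19 (adjusted p = 0.678) in Col-0, and neither passed. Its footprints were few, with 101 and 109 footprints in fust1 at 37 °C and 682 and 394 in fust1 at 22 °C. In Col-0 ATCG00190 had 57 and 48 at 37 °C and 260 and 368 at 22 °C. ATCG01020 had 255 and 449 RNA counts in fust1 at 37 °C, 195 and 238 in fust1 at 22 °C, 294 and 362 in Col-0 at 37 °C, and 368 and 353 in Col-0 at 22 °C, about as many RNA counts in heated as in unheated Col-0 libraries, and 15 to 31 footprints in heated fust1. Its RNA changed by 1.49 ± 0.30 (adjusted p = 0.00348) in fust1 and 0.93 ± 0.30 (adjusted p = 0.0314) in Col-0, where the call ended without Col-0 22 °C replicate 2 (0.68) or Col-0 37 °C replicate 2 (0.57), while its footprints fell.

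Of the 45 genes tested in both assays, 17 had lower footprints and higher RNA in heated fust1 on the TMM scale and 0 had higher footprints and higher RNA. In heated Col-0 5 had lower footprints and higher RNA and 2 had both higher. Of all genes tested, 31.2 % were called lower in footprints and 18.8 % higher in RNA in fust1. In Col-0 these shares were 31.8 % and 19.2 %. The share of all genes with both calls is not given here, so the joint counts are a description. None of the 45 plastid genes was called lower in RNA in either genotype, while 4 of the 45 had a log2 change below 0 in fust1 and 6 in Col-0. The RNA comparisons between genotypes gave 0 plastid calls in edgeR and 0 in DESeq2, where 0.0465 % of all genes were called higher and 0.0103 % lower at 22 °C, 0.0155 % and 0.0362 % at 37 °C, and 0 % and 0.031 % in the test of heat by genotype. At an unadjusted p under 0.05 there was 1 gene at 22 °C, 2 at 37 °C and 3 in the test of heat by genotype, of the 45. For all plastid genes together, the ratio of footprint CPM to RNA CPM was 34.8 and 21.2 in fust1 at 37 °C, 306 and 190.0 in fust1 at 22 °C, 50.9 and 50.9 in Col-0 at 37 °C, and 161 and 217 in Col-0 at 22 °C. The heated values lie below all unheated ones, and the fust1 values at 37 °C lie below the Col-0 ones. Oligo-dT RNA is not a sample of the plastid templates, so this ratio is no measure of translation per template. It rests on 2010 to 4149 plastid counts per RNA library and was not tested. Mitochondrial genes, the other organelle set in these libraries, took 0.0589 ± 0.00197 % of RNA counts in fust1 at 37 °C and 0.00156 ± 0.000483 % in fust1 at 22 °C, and 0.0531 ± 0.00943 % in Col-0 at 37 °C and 0.00173 ± 0.000418 % in Col-0 at 22 °C. Their share of footprints was lower in heat, as that of the plastid genes was. In the same order of groups it was 0.00733 ± 0.00127 %, 0.0168 ± 0.00192 %, 0.00939 ± 0.00314 % and 0.0144 ± 0.00323 %. For the 8 mitochondrial genes tested in footprints on the TMM scale, the median was -0.51 between genotypes at 37 °C and -0.68 in heat by genotype, with 0 called in either.

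Genes with like profiles within the plastid footprints were found among the 30 genes with at least 100 footprints in every library, by the Pearson correlation of the log2 share over the 8 footprint libraries. ATCG00490 was most like ATCG00280 (0.96), ATCG00630 (0.85) and ATCG00330 (0.74). ATCG00020 was most like ATCG01060 (0.84), ATCG00340 (0.83) and ATCG00680 (0.82). ATCG00680 was most like ATCG00540 (0.96), ATCG00340 (0.95) and ATCG00120 (0.87). The 8 libraries fall into 4 groups of replicates and all shares in a library add up to the same total, so these values are a description, and the 3 starting genes were chosen after their values were seen.

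In footprints, nuclear genes whose products act on plastid gene expression were called in both directions in heat. Of 19 genes for plastid transcription (sigma factors, the phage-type RNA polymerases and polymerase-associated proteins), 4 rose and 9 fell in heated fust1 and 5 rose and 8 fell in heated Col-0, on the TMM scale of footprints, with medians of -0.34 and -0.25. Over all genes tested 27.6 % were called higher and 31.2 % lower in fust1, and 27.8 % and 31.8 % in Col-0. The medians over all genes were -0.13 and -0.21. Single genes named from these lists are examples, and the lists were not tested as sets. SIG5, a sigma factor of the plastid polymerase, rose by 1.32 ± 0.23 in fust1 and 1.93 ± 0.23 in Col-0. Of 10 plastid translation factors, 3 rose and 5 fell in each genotype, with medians of -0.63 and -1.12. FUG1, a plastid translation initiation factor, changed by -3.84 ± 0.18 and -4.56 ± 0.21, and RABE1b, the plastid elongation factor Tu, changed by -1.30 ± 0.14 and -1.48 ± 0.14.

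Of 13 nuclear factors that act on plastid mRNAs, 2 rose and 9 fell in heated fust1 and 3 rose and 10 fell in heated Col-0, with medians of -1.20 and -1.69. HCF173, which is needed for translation of psbA, rose by 1.12 ± 0.16 in fust1 and 0.67 ± 0.16 in Col-0. MRL1, needed to accumulate rbcL mRNA, changed by -3.23 ± 0.24 and -4.55 ± 0.29. At 37 °C fust1 relative to Col-0 had 2 transcription genes higher and 3 lower, 1 translation factor higher and 0 lower, and 3 mRNA factors higher and 0 lower. CP31A, an RNA-binding protein of the plastid, was higher by 1.16 ± 0.17 and SIG5 was lower, at -1.05 ± 0.23. In RNA on the TMM scale the counts of higher and lower genes in heat were 3 and 4 in fust1 and 0 and 4 in Col-0 for transcription, 5 and 2 in fust1 and 4 and 2 in Col-0 for translation factors, and 3 and 3 in fust1 and 5 and 2 in Col-0 for mRNA factors. In the footprint test of heat by genotype the counts were 1 and 2, 1 and 0, and 3 and 0, with CP31A at 1.42 ± 0.22. For heat in footprints the shares over all genes tested are those given with the transcription list. Between genotypes at 37 °C 6.11 % of all genes were called higher and 4.61 % lower in footprints, and 5.49 % and 3.21 % in heat by genotype. In RNA the shares were 18.8 % and 17.9 % in heated fust1 and 19.2 % and 18.2 % in heated Col-0. A rise smaller than the shift between the TMM and the library-total scale is no rise relative to the library total.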

How the data were processed

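RNA-seq (oligo-dT) and Ribo-seq (RNase I, sizing columns, rRNA depletion) libraries of Arabidopsis seedlings were deposited as 2 tables of whole-number counts per gene, raw counts with no scaling, 1 column per library. The submitters' processing notes name fastp 0.19.7, Bowtie 1.0.1, STAR 2.7.3a, featureCounts 1.6.2 and the TAIR10 build. The labels do not say how reads that match several places were counted or whether strand was used. Columns were matched to libraries by title, and 0 columns were unused.

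From these counts edgeR 4.0.16 with limma 3.58.1 (R 4.3.3) fitted quasi-likelihood models over all 4 groups of an assay, with a robust prior and no replicate block, on the genes passing filterByExpr (minimum count 10). P-values were adjusted by Benjamini-Hochberg over all genes tested, and a gene was called at an adjusted p under 0.05. The model has 4 residual degrees of freedom. Errors of log2 changes are SEs, and adjusted p-values in the text come from edgeR unless DESeq2 is named. Footprints were scaled by TMM over all genes, by the plastid total or by the library total, and RNA by TMM. The TMM fit of heat in Col-0 was run on simulated counts with as many genes raised as lowered. The plastid-total and library-total fits were not simulated. Shares are sums of raw counts, with SDs over 2 libraries. Replicates of a group differed by far more than sampling noise, and intervals of counts would cover counting error only. Footprint libraries held 81764 to 873616 plastid counts and RNA libraries 2010 to 4149, so RNA values of single plastid genes are the less precise.

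Values per library are given for the 12 genes with the highest mean footprint share, up to 4 genes with the largest called rise and fall per comparison on the plastid-total scale, up to 3 each way on the TMM scale, the 5 genes with the highest RNA share and up to 3 called each way in RNA. The rule also asked for rbcL, psbA and groups by symbol, which could not be applied because no source used here pairs ATCG identifiers with symbols. The members and lists were chosen with earlier results of these data known. Alternatives were DESeq2 1.42.0, RLE scaling, TMM over nuclear genes, no filter, a replicate block, fits of the compared groups alone, other denominators and each library left out. TMM over plastid genes alone, plastid-total scaling for plastid genes with TMM for the others, and leaving out ATCG00680 were chosen after seeing the data. With a library left out, its group has 1 sample, which is assumed to vary like the other groups. Figures were drawn with matplotlib 3.10.9.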

Additional observations from a re-analysis of the deposited data

Results flagged for a closer look

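Heat changed plastid footprints differently in fust1 and in Col-0 by the direct test of the difference (heat by genotype, edgeR with Benjamini-Hochberg adjustment over all genes, TMM scale). The test called 23 of 73 plastid genes, all lower in fust1, where 3.21 % of all genes tested were called lower and 5.49 % higher. Of the genes named here, the log2 differences were -1.91 for ATCG01130, -1.91 for ATCG01010, -1.86 for ATCG00170, -1.63 for ATCG00630, -1.62 for ATCG01100, -1.36 for ATCG00420, -1.32 for ATCG00070, -1.18 for ATCG00080, -1.16 for ATCG00350, -1.07 for ATCG00280 and -1.07 for ATCG00490. The calls of ATCG00070, ATCG00350 and ATCG01100 were kept with each library left out, and each of the other calls listed ended with at least 1 left out. For example, ATCG00280 gave -0.96 without Col-0 37 °C replicate 1, and ATCG00490 gave -0.73 without fust1 22 °C replicate 1. On the plastid-total scale 0 genes were called in the same test. Plastid-total scaling of the plastid genes with TMM for all others gave 4 higher and 1 lower. Groups of 2 libraries were not examined for single outlying samples.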

How the results depend on the processing

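With each library left out in turn, the numbers of plastid genes called ranged as follows. For heat in Col-0 they were 10 to 21 higher and 11 to 22 lower on the TMM scale, 4 to 19 and 2 to 17 on the plastid-total scale, and 0 to 2 and 55 to 65 on the library-total scale. For heat in fust1 they were 1 to 5 and 33 to 52 on the TMM scale, 7 to 14 and 5 to 16 on the plastid-total scale, and 64 to 69 lower on the library-total scale. For the genotypes at 22 °C they were 0 to 4 higher and 0 to 1 lower on the TMM scale and 0 to 1 higher on the plastid-total scale. At 37 °C they were 7 to 33 lower on the TMM scale and 0 to 9 higher and 0 to 2 lower on the plastid-total scale. Heat by genotype gave 9 to 38 lower on the TMM scale and 0 to 1 each way on the plastid-total scale. In RNA heat gave 4 to 15 higher in Col-0 and 9 to 25 higher and 0 to 1 lower in fust1, and the genotypes at 37 °C 0 to 1 lower. Log2 ratios of the plastid share ranged from -0.28 to 0.30 for footprints at 22 °C between genotypes (-0.28 without fust1 replicate 1 and -0.03 without Col-0 replicate 2), from -0.13 to 0.16 for RNA and heat in Col-0 (-0.13 and -0.10 being reversals) and from -0.019 to 0.43 for RNA between genotypes at 37 °C, so these 3 have no settled direction. Heat ratios of the footprint share stayed negative, from -2.86 to -2.28 in fust1 and -1.97 to -1.77 in Col-0.

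Without the heat shock and chaperone genes in the total those ratios were -2.09 in fust1 and -1.34 in Col-0. With no filter, 3 genes were higher between genotypes at 22 °C and 35 lower in heat by genotype on the TMM scale. On the plastid-total scale, TMM over plastid genes alone gave 7 higher in heated fust1, 5 in heated Col-0 and 0 between genotypes at 37 °C. Plastid-total scaling of the plastid genes with TMM for all others gave 22 higher and 20 lower in heated fust1, 21 lower in heated Col-0, 2 higher between genotypes at 22 °C, 11 higher and 2 lower at 37 °C, and 4 higher and 1 lower in heat by genotype. The compared groups alone gave 7 higher and 5 lower in heated fust1, 21 lower in heated Col-0, 5 higher between genotypes at 37 °C and, on the library-total scale, 1 higher in heated Col-0. Between genotypes at 37 °C on the plastid-total scale, DESeq2 gave 2 higher and 1 lower and no filter 0 higher. The cause of these moves was not tested. The alternative without rbcL and psbA was not run, nor were the nuclear lists and ATCG00220 under any alternative.

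The labels do not pair same-numbered replicates, and the correlations of their deviations ran from -0.07 to 0.06 in footprints and -0.26 to 0.21 in RNA. With the replicate number as a block, calls lost on the TMM scale of footprints included ATCG01130 for heat in Col-0 (0.76). Also lost were ATCG00480 (-0.97) and ATCG00430 (-0.87) between genotypes at 37 °C. In that fit 8 plastid genes rose in RNA of heated Col-0, and 119 of 129 calls of named genes were kept. Of these 129 calls, 58 were kept in each alternative run, 70 ended with at least 1 library left out, 23 with at least 1 other alternative, and 0 changed direction.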
